A study of Mus musculus with 10 samples.

Results

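The members of the tumour necrosis factor (TNF) receptor superfamily described here are 9 receptor genes of B cells and their helpers: Cd40, the BAFF and APRIL receptors Tnfrsf13c (BAFF-R), Tnfrsf13b (TACI) and Tnfrsf17 (BCMA), the death domain receptors Fas and Tnfrsf1a (TNFR1), and Tnfrsf1b (TNFR2), Tnfrsf14 (HVEM) and Cd27. They were chosen by name, and every probe set that the platform annotation gives to one of these symbols was taken, which gave 12 probe sets. All 9 were on the array, out of 18193 genes with a probe set of their own. The samples are cultured splenic B cells of C57BL/6 mice, 5 with both Irf4 alleles disrupted (Irf4-/-) and 5 from Irf4+/+ littermates, each on a 1-colour Affymetrix array. The mice were 12 weeks old, non-B cells had been depleted magnetically, and all 10 samples had received anti-CD40 antibody and 20 ng/ml of IL-4 during 3 days of culture, so that no unstimulated sample is part of the comparison. Whether replicates are separate mice or separate cultures is not stated in the labels, and p-values therefore measure only how these samples scatter, which may be technical variation.

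Receptors of this family are membrane proteins that cluster when their ligand binds and then recruit adaptors inside the cell. CD40, BAFF-R, TACI, BCMA, CD27, TNFR2 and HVEM recruit TRAF proteins, which activate NF-kB and keep B cells alive and dividing, while Fas and TNFR1 carry a death domain through which caspases can be activated. In B cells CD40 receives help from T cells, BAFF-R carries the survival signal of mature cells, TACI and BCMA act later, towards antibody secretion, and Fas removes activated cells. Irf4 encodes an interferon regulatory factor that B cells induce on activation and need for plasma cell differentiation.

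With Irf4 disrupted, the receptor the culture stimulates rose more than 3-fold while the BAFF survival receptor fell to 53.1% of its Irf4+/+ level. Cd40 rose 3.52-fold and Tnfrsf13c fell 1.88-fold, with no overlap between genotypes for either gene. Tnfrsf13b and Fas rose by small amounts (1.22-fold and 1.33-fold), and Tnfrsf14 was near the bottom of the array's range in all Irf4+/+ samples and above it in all Irf4-/- samples. Tnfrsf1a and Tnfrsf1b were not called, and Tnfrsf17 and Cd27 were too dim to pass the filter. Of the 7 receptors bright enough to be tested 4 rose and 1 fell, in a comparison that called 47.2% of all genes (23.4% higher, 23.9% lower). The 2 receptors called with at least a 2-fold change, Cd40 and Tnfrsf14, both rose, and they compare with 8.04% of all genes called at that size in either direction and 5.42% higher. The groups did not overlap for 4 of the 7 receptors and for 35.7% of all genes. Tnfrsf14 passed the filter on dim signals through its Irf4-/- samples alone, so it had to differ, and these counts are given as a description.

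**Figure D1:**
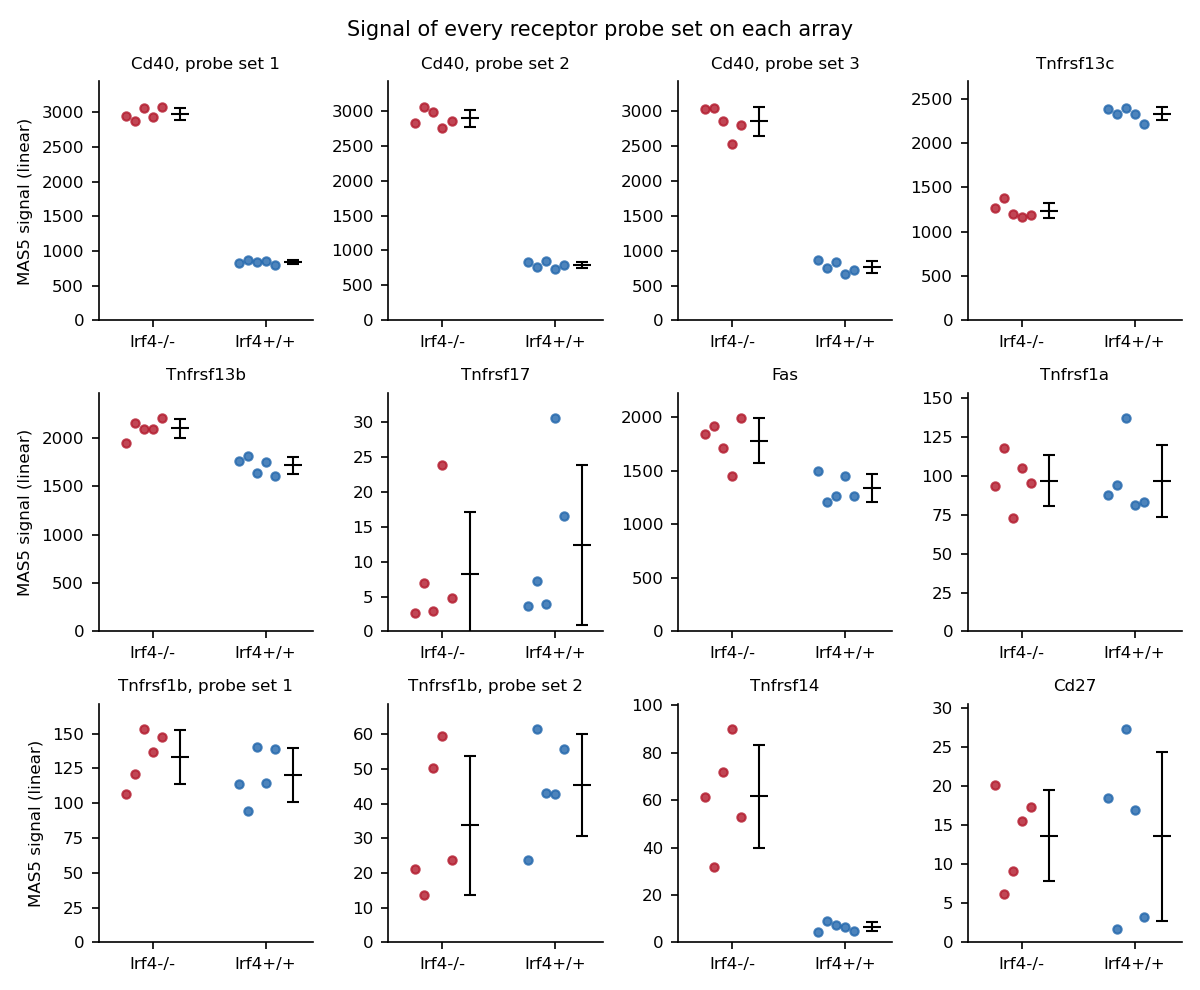
Each panel plots the MAS5 signal (linear, in array units) of 1 probe set on the 5 Irf4-/- arrays (red) and the 5 Irf4+/+ arrays (blue), with the mean and SD of each genotype in black. The lower bar of Tnfrsf17 in Irf4-/- samples is cut at 0. The genotypes are apart for all 3 Cd40 probe sets, Tnfrsf13c, Tnfrsf13b and Tnfrsf14, and they overlap in the other panels.

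Facts of the arrays as a whole bear on all of these values. The Irf4 transcript was still measured, with signals of 2638 to 2989 in Irf4-/- against 3426 to 3978 in Irf4+/+ samples on its brighter probe set (log2 fold change -0.43, limma adjusted p = 5.01e-06), and since the labels do not place this probe set relative to the disrupted part, it does not check the genotype. Array medians ran from 39.9 to 45.0 in Irf4-/- and from 37.2 to 42.7 in Irf4+/+ samples, and the mean signal of the 18S ribosomal RNA controls from 91.8 to 202.9 in Irf4-/- and from 27.3 to 67.2 in Irf4+/+ samples. The B cell markers looked for, among them Cd79a, Cd79b, Ms4a1 and Cd22, were measured above the filter in every sample, and all 7 with a probe set here rose in Irf4-/- samples, where their summed signal was 43818 to 48819 against 22473 to 26167 in Irf4+/+ samples. Markers of natural killer cells rose too, 8 of 8 measured, with a summed signal of 11456 to 15919 in Irf4-/- and 1273 to 1542 in Irf4+/+ samples. Most of that sum came from Gzma (8256 ± 1380 in Irf4-/- against 818.6 ± 106 in Irf4+/+ samples) and Gzmb (4868 ± 533 in Irf4-/- against 362.0 ± 51.6 in Irf4+/+ samples). The dimmest in Irf4-/- samples were Ncr1 (45.7 ± 10.3 against 16.2 ± 7.83 in Irf4+/+ samples) and Klrk1 (58.4 ± 11.2 against 25.2 ± 12.8 in Irf4+/+ samples). Of macrophage and monocyte markers 5 of 7 tested rose (a summed signal of 1899 to 2247 in Irf4-/- against 516.4 to 586.8 in Irf4+/+ samples). None of these markers was at 0 on all arrays. Of granulocyte markers 3 of 5 tested rose (a summed signal of 605.9 to 1023 in Irf4-/- against 127.7 to 207.3 in Irf4+/+ samples). Over all genes 23.4% were called higher. S100a8, S100a9 and the macrophage marker Chil3 (Irf4+/+ means of 18.3, 6.56 and 4.66) passed the filter through their Irf4-/- samples alone and had to differ. The same holds for the natural killer markers Ncr1, Klrd1 and Nkg7 (Irf4+/+ means of 16.2, 22.8 and 24.0). Of the 7 T cell markers with a probe set here, Cd3e, Cd3d, Cd3g and Cd4 had means of at most 12.0 in either genotype and Themis was also under the filter, while Cd8a (77.2 ± 10.9 in Irf4-/- against 81.9 ± 16.3 in Irf4+/+ samples) was not called and Cd28 (55.3 ± 7.29 in Irf4-/- against 82.9 ± 11.0 in Irf4+/+ samples) fell. The summed T cell signal was 151.7 to 200.1 in Irf4-/- and 184.7 to 259.7 in Irf4+/+ samples. Of the 3 dendritic cell markers tested 2 rose and 1 fell, with a summed signal of 530.7 to 612 in Irf4-/- against 742.2 to 865.9 in Irf4+/+ samples. The 1 that fell, Flt3, averaged 53.2 ± 15.6 in Irf4-/- against 417.3 ± 29.7 in Irf4+/+ samples. In bulk samples like these, fewer cells of a type and less RNA per cell cannot be told apart.

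Cd40 encodes the receptor for CD40 ligand, and its antibody was one of the stimuli in all samples. On its brightest probe set the Irf4-/- arrays read 2945, 2873, 3058, 2934 and 3075 signal units and the Irf4+/+ arrays 830.1, 876, 835.6, 861.8 and 793.5. Every Irf4-/- array was far above every Irf4+/+ array, and the means were 2977 ± 86.4 in Irf4-/- samples against 839.4 ± 31.8 in Irf4+/+ samples (SD, n = 5 each). The log2 fold change was 1.82 (SE 0.05, limma adjusted p = 6.12e-14), and 226 of 12251 tested genes (1.84%) had one at least as large. The 95% interval for Cd40 was 3.27-fold to 3.79-fold.

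The remaining Cd40 probe sets gave similar sizes. The middle one by brightness averaged 2893 ± 123 in Irf4-/- against 793.3 ± 48.8 in Irf4+/+ samples, a 3.62-fold rise, and the dimmest 2852 ± 206 in Irf4-/- against 767.1 ± 85.9 in Irf4+/+ samples, a 3.70-fold rise (SD, n = 5 each). The gap between the brightest probe set and each of the others showed no difference between genotypes that passed an exact two-sided permutation test (adjusted p = 0.548 for each, over 3 such pairs among the receptors), with differences of -0.04 and -0.07 on the log2 scale. All 3 probe sets have names that mark probes matching more than 1 transcript, and the annotation gives each to Cd40 alone, so no splice form is read separately. Markers of B cells, natural killer cells and macrophages rose in the same samples, as did the 18S control, and their part in the rise of Cd40 was not tested.

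Across the 10 arrays the genes whose log2 profile was most like that of Cd40 were Serpinb9, Bank1 and Cd96. Likeness was measured as the root mean square difference between profiles, each centred on its own mean, and was 0.0726 for Serpinb9, 0.0734 for Bank1 and 0.0748 for Cd96 on the log2 scale. Serpinb9, an inhibitor of granzyme B, averaged 2471 ± 93.5 in Irf4-/- against 662.2 ± 43.3 in Irf4+/+ samples. Bank1, a B cell adaptor, averaged 1546 ± 72.8 in Irf4-/- against 448.9 ± 27.8 in Irf4+/+ samples, and Cd96, a receptor of T and natural killer cells, 1522 ± 54.0 in Irf4-/- against 447.5 ± 21.5 in Irf4+/+ samples (SD, n = 5 each). With only 2 genotypes, such likeness is a description of changes of similar size.

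The BAFF and APRIL receptors moved in different directions. Tnfrsf13c encodes BAFF-R, which binds BAFF alone and on which mature B cells depend for survival. Its signal was 1271, 1376, 1196, 1166 and 1185 in Irf4-/- samples and 2390, 2326, 2401, 2334 and 2218 in Irf4+/+ samples. The highest Irf4-/- array lay far below the lowest Irf4+/+ array. The means were 1239 ± 86.7 in Irf4-/- against 2334 ± 72.9 in Irf4+/+ samples (SD, n = 5 each), with a log2 fold change of -0.91 (SE 0.0563, limma adjusted p = 1.19e-09), and 3.39% of all tested genes had a value at or below it. All 7 B cell markers measured rose in the same samples, and the part of cell types in the fall of Tnfrsf13c was not tested.

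Tnfrsf13b encodes TACI, which binds BAFF and APRIL and both restrains B cell numbers and promotes class switching without T cell help. It read 1944, 2153, 2093, 2093 and 2201 in Irf4-/- samples, against 1760, 1808, 1639, 1751 and 1603 in Irf4+/+ samples. All Irf4-/- arrays were above all Irf4+/+ arrays, by a narrow margin at the closest pair. Mean signals were 2097 ± 96.9 in Irf4-/- against 1712 ± 87.0 in Irf4+/+ samples (SD, n = 5 each; log2 fold change 0.29, SE 0.0543, limma adjusted p = 0.000294), and 23.4% of all genes were called higher.

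Tnfrsf17 encodes BCMA, the APRIL receptor of plasma cells. Its signals were 2.7, 7.0, 2.9, 23.9 and 4.8 in Irf4-/- samples and 3.6, 7.2, 3.9, 30.6 and 16.6 in Irf4+/+ samples. Apart from 1 Irf4+/+ array, all of these lie under 26.1, the 40th percentile of all values of the table, so no level is given for either genotype. Fitted without the filter, the log2 fold change was -0.30 with a 95% interval from -1.10 to 0.50 (limma adjusted p = 0.68, in a fit that called 22.7% of all probe sets). Plasma cell markers looked for beside it included Jchain, which fell to 21.9 ± 10.1 in Irf4-/- samples against 980.8 ± 90.9 in Irf4+/+ samples. Jchain passed the filter through its Irf4+/+ samples alone and had to differ. Of the 5 tested 4 fell and 0 rose, where 23.9% of all genes were called lower. The smallest of these falls was that of Xbp1 (8715 ± 581 in Irf4-/- against 9998 ± 302 in Irf4+/+ samples, log2 fold change -0.20).

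Of the death domain receptors 1 rose and 1 was not called. Fas, which triggers apoptosis when it meets Fas ligand, read 1838, 1912, 1711, 1450 and 1987 in Irf4-/- samples, and 1501, 1207, 1263, 1453 and 1259 in Irf4+/+ samples. The genotypes overlapped through Irf4-/- replicate 4, which lay below Irf4+/+ replicates 1 and 4. Mean signals were 1779 ± 211 in Irf4-/- against 1336 ± 131 in Irf4+/+ samples (SD, n = 5 each), a log2 fold change of 0.41 (SE 0.0851, limma adjusted p = 0.000801). Left out in turn, the arrays gave values from 0.37 to 0.48, all of them called.

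Tnfrsf1a encodes TNFR1, the widely expressed receptor for TNF. It read 93.8, 118.2, 72.8, 105.1 and 95.7 in Irf4-/- samples and 87.8, 94.4, 137.3, 81.5 and 83.6 in Irf4+/+ samples, so the genotypes lay in the same range. Mean signals were 97.1 ± 16.7 in Irf4-/- against 96.9 ± 23.1 in Irf4+/+ samples (SD, n = 5 each), and the log2 fold change of 0.01 was not called (limma adjusted p = 0.963). Its 95% interval runs from 0.796-fold to 1.28-fold, and changes within it could not be told from none.

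Tnfrsf1b encodes TNFR2, which has no death domain and is found on leukocytes. Its brighter probe set read 106.4, 121.3, 153.3, 136.6 and 147.7 in Irf4-/- samples, against 114.2, 94.2, 140.2, 114.4 and 138.7 in Irf4+/+ samples. The ranges overlapped (133.1 ± 19.3 in Irf4-/- against 120.3 ± 19.3 in Irf4+/+ samples, SD, n = 5 each), and the log2 fold change of 0.14 was not called (limma adjusted p = 0.434, 95% interval 0.904-fold to 1.34-fold). The dimmer probe set had a value of the opposite sign, -0.44 (33.7 ± 20.1 in Irf4-/- against 45.4 ± 14.6 in Irf4+/+ samples, limma adjusted p = 0.308 over all probe sets). No difference in the gap between both probe sets passed the test (exact two-sided permutation p = 0.151, adjusted p = 0.452), and no direction is given for Tnfrsf1b.

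Tnfrsf14 encodes HVEM, which binds the TNF family ligand LIGHT and, outside that family, the inhibitory receptor BTLA. It read 61.5, 31.7, 71.7, 90.0 and 53.1 in Irf4-/- samples and 4.6, 9.1, 7.5, 6.6 and 4.9 in Irf4+/+ samples. All Irf4+/+ signals were near the bottom of the array's range, and all Irf4-/- signals were above 26.1. Mean signals were 61.6 ± 21.6 in Irf4-/- against 6.54 ± 1.87 in Irf4+/+ samples (SD, n = 5 each). The log2 fold change was 2.21 (SE 0.301, limma adjusted p = 1.23e-05), but its size depends on the constant added before the log. It was 3.01 with a constant of 1 and 1.25 with a constant of 32, and the direction was the same with each. HVEM is also found on T cells, natural killer cells and myeloid cells. The Irf4-/- samples also had the higher sums of natural killer, macrophage and granulocyte markers given above. Their sum of dendritic cell markers was lower, and the T cell sums of the genotypes overlapped. The part of other cell types in this signal was not tested. The genes with the most similar profile were Klhl14, Cadm1 and Ighg3, at root mean square differences of 0.289, 0.297 and 0.300 on the log2 scale over the 10 arrays, all farther than the genes nearest to Cd40.

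Cd27 encodes the receptor for CD70, a costimulatory receptor of T cells and of some B cells and natural killer cells. Its signals were 20.1, 6.2, 9.1, 15.6 and 17.3 in Irf4-/- samples and 18.5, 1.7, 27.3, 17.0 and 3.3 in Irf4+/+ samples. All but 1 of the 10 values were under 26.1, and fitted without the filter the log2 fold change was 0.14 with a 95% interval from -0.65 to 0.92 (limma adjusted p = 0.869).

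**Figure D2:**
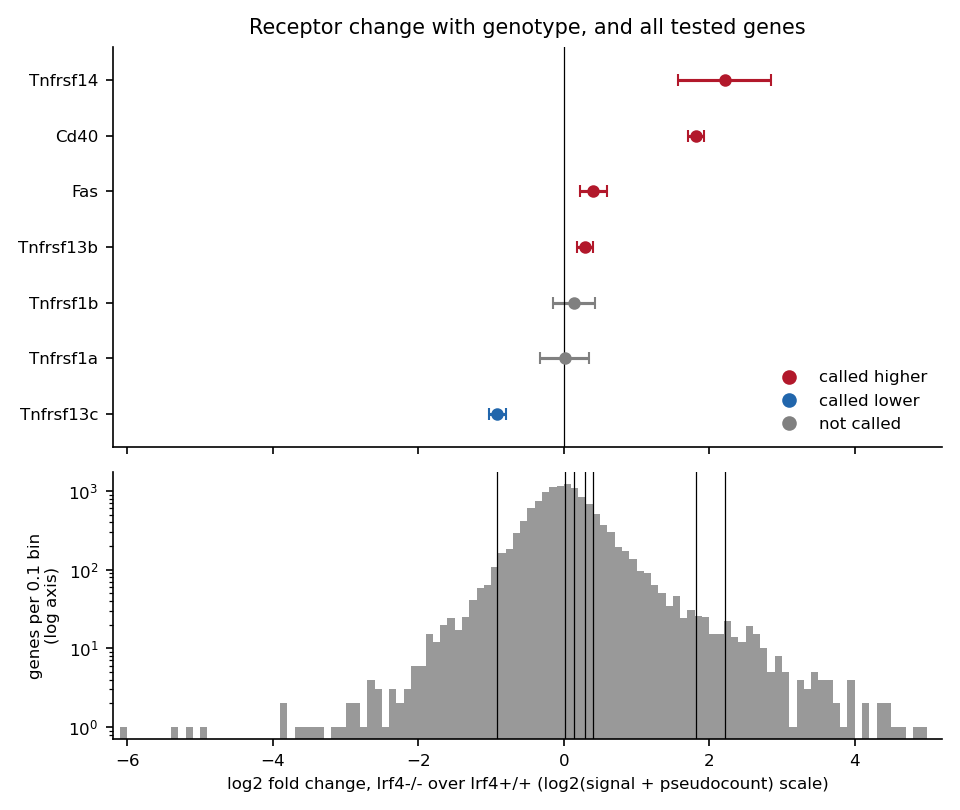
The upper panel plots the log2 fold change of each tested receptor, Irf4-/- over Irf4+/+, on the log2(signal + 7.9) scale, with its 95% interval from limma (5 arrays per genotype). The lower panel is a histogram of the same value for all 12251 tested genes on a log axis, with the receptors as vertical lines. Tnfrsf14 and Cd40 lie in the right tail, Tnfrsf13c on the left, and the other 4 receptors near the centre.

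The promoters of these genes were searched for letters that interferon regulatory factors are known to bind, and for AP-1 and NF-kB sites. The RefSeq promoters used here, on assembly GRCm38.p6, cover 8 of the 9 receptors. They hold no entry for Cd40, so its promoter was not searched. The 250 bases before each start were read on the gene's own strand and searched on both strands for 4 motifs. These included the interferon-stimulated response element (GAAA, any 2 bases, GAAA) and the ETS-IRF composite element (GGAA, any 2 bases, GAAA). The others were the AP-1 site (TGA, any base, TCA, which reads the same on both strands) and an NF-kB site (GGG, any 2 bases, TTTCC). No match of 1 motif overlapped a match of another in these promoters. The response element was found once each before Tnfrsf14, Tnfrsf1b and Tnfrsf17, as against 2.98% of 32841 promoters of the same length. The composite element and the NF-kB site were found in 0 of the 8 (2.30% and 1.41% of all promoters), and the AP-1 site only before Fas (6.75% of all). The 3 promoters with the response element are printed, with that of Tnfrsf13c, the receptor that fell, which holds none of the 4 motifs. Capitals mark the element, which lies on the opposite strand in each and so reads TTTC first.
Tnfrsf14 (chr4:154928078-154928327, minus strand): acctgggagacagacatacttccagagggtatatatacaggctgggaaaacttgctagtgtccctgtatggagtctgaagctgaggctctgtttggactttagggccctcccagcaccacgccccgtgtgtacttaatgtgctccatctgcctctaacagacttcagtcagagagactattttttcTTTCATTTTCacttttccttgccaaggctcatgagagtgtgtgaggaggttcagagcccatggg
Tnfrsf1b (chr4:145246871-145247120, minus strand): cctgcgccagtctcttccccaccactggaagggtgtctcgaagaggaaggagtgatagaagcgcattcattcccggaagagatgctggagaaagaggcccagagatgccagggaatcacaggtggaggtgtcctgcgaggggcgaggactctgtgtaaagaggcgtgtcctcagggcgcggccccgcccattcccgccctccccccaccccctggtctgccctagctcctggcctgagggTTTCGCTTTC
Tnfrsf17 (chr16:11313559-11313808, plus strand): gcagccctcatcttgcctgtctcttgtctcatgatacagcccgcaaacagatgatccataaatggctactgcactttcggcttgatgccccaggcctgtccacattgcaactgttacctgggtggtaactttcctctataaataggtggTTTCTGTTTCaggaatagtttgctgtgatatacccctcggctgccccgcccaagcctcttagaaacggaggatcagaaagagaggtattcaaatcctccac
Tnfrsf13c (chr15:82224381-82224630, minus strand): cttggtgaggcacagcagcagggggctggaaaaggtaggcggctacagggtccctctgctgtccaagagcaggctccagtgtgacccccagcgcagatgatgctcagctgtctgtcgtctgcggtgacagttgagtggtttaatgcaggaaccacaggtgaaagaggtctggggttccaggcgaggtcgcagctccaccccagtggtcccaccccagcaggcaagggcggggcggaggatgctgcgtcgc
The element ended 55 bases before the start of Tnfrsf14 and 92 bases before that of Tnfrsf17, and in Tnfrsf1b it directly adjoined the start. Of these 3 genes Tnfrsf14 rose, Tnfrsf1b was not called and Tnfrsf17 was dim. A match describes letters and not binding.

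Ligands of the TNF receptor family, some of which bind none of the 9 receptors, changed in both directions. Of 20 listed, 16 had a probe set here and 13 were bright enough to test: 6 rose, 3 fell and 4 were not called, with a median log2 fold change of 0.46, where the median of all tested genes was 0.00. By the naming rule, Fasl and Ltb rose most and Tnfsf9 and Btla fell most. Fasl, the ligand of Fas, read 79.0, 84.6, 53.3, 76.6 and 76.9 in Irf4-/- samples and 6.1, 4.0, 9.3, 15.1 and 23.4 in Irf4+/+ samples. It was close to the floor in Irf4+/+ samples, so its log2 fold change of 2.15 ran from 1.29 to 2.79 with the constant added. Fasl is a gene of natural killer and T cells. It passed the filter through its Irf4-/- samples alone and had to differ. So did Tnfsf11, named after its values were seen and also among those that rose (36.6 ± 18.9 in Irf4-/- against 15.0 ± 6.63 in Irf4+/+ samples). Ltb, which encodes lymphotoxin beta, averaged 4003 ± 468 in Irf4-/- against 1892 ± 301 in Irf4+/+ samples, a 2.12-fold rise (limma adjusted p = 1.70e-07).

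Of the 3 genes of the list that fell, Btla and Tnfsf9 are named by the rule. Btla, the immunoglobulin family partner of HVEM, read 1893, 2080, 1919, 1918 and 1879 in Irf4-/- samples and 4923, 4866, 4552, 5133 and 4378 in Irf4+/+ samples. Its fall was 2.45-fold (limma adjusted p = 1.24e-11), opposite in direction to Tnfrsf14, and all Irf4-/- arrays were below all Irf4+/+ arrays. Cd160, another partner of HVEM, named after its values were seen, rose instead (72.9 to 101.9 in Irf4-/- against 40.7 to 85.3 in Irf4+/+ samples, log2 fold change 0.50, adjusted p = 0.0355). Tnfsf9, the ligand of 4-1BB, fell 2.98-fold to 297.8 ± 14.7, against 907.6 ± 105 in Irf4+/+ samples (adjusted p = 1.42e-10). Cd70, the ligand of CD27, was named after its values were seen. It averaged 192.1 ± 32.3 in Irf4-/- against 372.4 ± 52.1 in Irf4+/+ samples, a 1.91-fold fall (SD, n = 5 each; adjusted p = 8.23e-06). The ligands Tnf and Tnfsf13b (BAFF), also named after their values were seen, were not called (log2 fold changes -0.24 and -0.23, adjusted p = 0.684 and 0.379).

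Other TNF receptors also changed in both directions. Of 19 listed, 18 had a probe set here and 13 were tested, and 4 rose, 2 fell and 7 were not called (median log2 fold change -0.02). Tnfrsf9, which encodes 4-1BB, read 199.6, 173.3, 160.7, 150.4 and 142.7 in Irf4-/- samples and 7.9, 15.3, 41.7, 33.7 and 14.3 in Irf4+/+ samples. Its Irf4+/+ mean was 22.6, so that it passed the filter through its Irf4-/- samples alone and had to differ. Its log2 fold change of 2.63 (adjusted p = 4.38e-07) was 3.04 with a constant of 1 and 1.89 with a constant of 32. Tnfrsf25, the receptor for TL1A, was close to the floor in Irf4+/+ samples (78.3 ± 16.1 in Irf4-/- against 12.2 ± 11.7 in Irf4+/+ samples, log2 fold change 2.26). Like Tnfrsf9, it passed the filter through its Irf4-/- samples alone and had to differ. Tnfrsf8, which encodes CD30, fell 3.45-fold to 53.0 ± 12.2 in Irf4-/- samples, against 202.4 ± 43.0 in Irf4+/+ samples. Tnfrsf10b, the mouse receptor for TRAIL, fell 2.13-fold to 28.7 ± 13.3 in Irf4-/- samples, against 66.6 ± 11.9 in Irf4+/+ samples, so that its Irf4-/- level was near the floor. Natural killer cells also express 4-1BB, and their markers were higher in the same samples, so the part of those cells was not tested.

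Adaptors and regulators that act beneath the receptors changed in both directions. Of 31 listed, 29 were tested, 13 rose, 6 fell and 10 were not called, and 0 of those called reached 2-fold, where 8.04% of all genes did (median log2 fold change 0.18). The listed Traf3 and Ripk1 had no probe set of their own here and were not tested. With the probe sets of each gene averaged, 15 rose and 3 fell. Traf3ip2, the adaptor Act1 that limits signalling by CD40 and BAFF-R in mouse B cells, averaged 617.9 ± 20.9 in Irf4-/- against 328.3 ± 41.3 in Irf4+/+ samples, a 1.87-fold rise. The necroptosis genes moved apart: Mlkl, the protein that breaks the membrane, rose 1.75-fold (405.1 ± 53.4 in Irf4-/- against 228.5 ± 29.1 in Irf4+/+ samples), and Ripk3, the kinase that activates it, fell 1.63-fold (603 ± 15.6 in Irf4-/- against 992.2 ± 76.2 in Irf4+/+ samples). Traf4 fell 1.49-fold (adjusted p = 0.00863), and with the mean of its probe sets it was not called (adjusted p = 0.051).

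Of the NF-kB subunits and IkB proteins, 9 of the 13 tested rose, 1 fell and 3 were not called (15 listed, median log2 fold change 0.40). The listed Nfkb1 and Chuk had no probe set of their own here and were not tested. Bcl3, a nuclear IkB protein that acts with NF-kB p50 and p52, read 1027, 1030.3, 891.1, 1026 and 894.8 in Irf4-/- samples and 183.5, 232.9, 284.7, 229.1 and 259.6 in Irf4+/+ samples, a 4.02-fold rise. Nfkbiz, another nuclear IkB protein, rose 3.61-fold to 1300 ± 155, against 352.9 ± 29.6 in Irf4+/+ samples. Rel, the c-Rel subunit, was the single gene of the list that fell, by a small amount (799.9 ± 26.9 in Irf4-/- against 906.8 ± 31.9 in Irf4+/+ samples, SD, n = 5 each; log2 fold change -0.18, adjusted p = 0.0122). These 4 lists were described by their counts, beside the 47.2% of all genes called, and no test was made of a list as a whole. Markers of B cells, natural killer cells and macrophages rose in the same samples, and their part in these values was not tested.

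**Figure D3:**
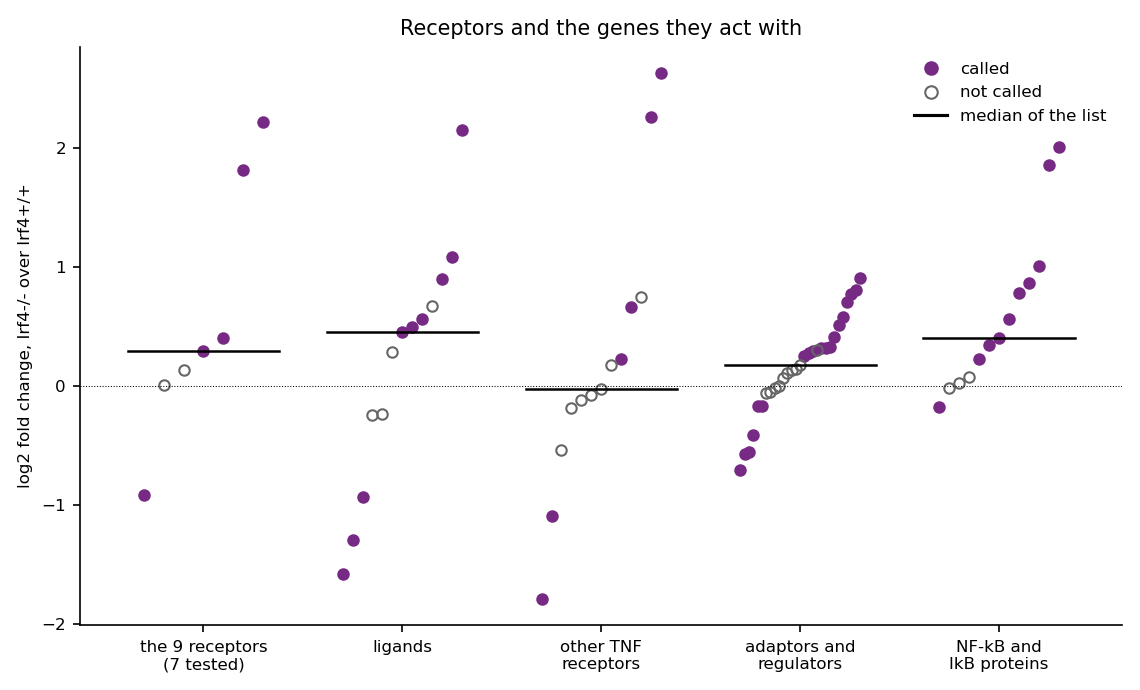
Each point is the log2 fold change (Irf4-/- over Irf4+/+, 5 arrays each) of 1 tested gene, ordered within its list, filled where it was called and open where it was not, and the bar is the median of the list. The NF-kB list has 9 genes called higher and 1 lower, while ligands and other TNF receptors spread widely to both sides of 0.

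**Figure D4:**
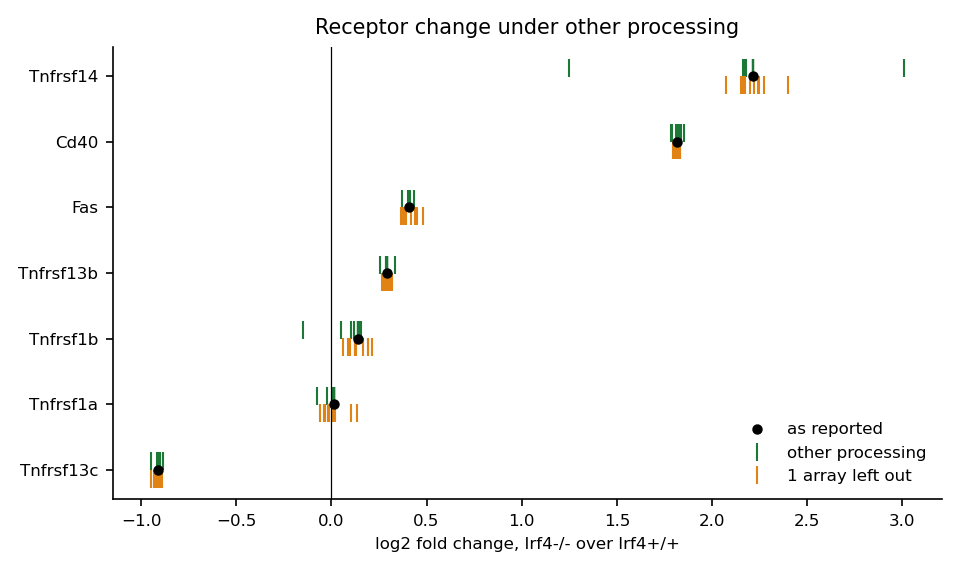
Each row plots the log2 fold change of 1 tested receptor (Irf4-/- over Irf4+/+) as reported (black), under other processing (green) and with 1 array left out (orange). Cd40, Tnfrsf13c, Tnfrsf13b and Fas stay in narrow ranges, Tnfrsf14 spreads from 1.25 to 3.01 with the constant added before the log, and Tnfrsf1a and Tnfrsf1b lie on both sides of 0.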

How the data were processed

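The deposited values are signal intensities on a linear scale, 1 per probe set and array, made by the authors with MAS5 per the submitters' processing notes. No source used here states the MAS5 version or its settings. Biotin-labelled cRNA came from 6 ug of total RNA, per the labels' protocols. The mean without the top and bottom 2% was 250 on every array, so the arrays were taken as scaled. Of 45101 probe sets, 64 were controls and 34945 carried a single gene symbol, 932 more than 1 and 9160 none in the annotation given, and 34741 symbols were updated through gene IDs of RefSeq assembly GRCm38.p6. Detection calls were not used here, and the number of arrays limits the precision.

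Values were set to log2(signal + 7.9), 7.9 being the 20th percentile of all values, so fold changes of dim genes are understated. Probe sets with a mean over all arrays under the 40th percentile of such means were left out, and each gene was read from its brightest probe set. limma 3.58.1 (R 4.3.3; lmFit, eBayes with trend) was fitted on all 12251 genes with genotype as its term and, for single probe sets, on all 27024 that passed. p-values are two-sided with Benjamini-Hochberg adjustment over the whole table, with calls made at adjusted p under 0.05. Adjusted p-values are from limma unless a permutation test is named. The procedure was tested on simulated data.

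The members and lists were chosen with earlier results of these data known. The text names all 9 receptors, the 2 called genes with the largest rise and the 2 with the largest fall of each list, the 3 nearest profiles of each receptor called at 2-fold or more (predicted models left out), and cell type markers. Alternatives were other constants, filters, scalings, variance models, other choices of probe set, weighted arrays, a block for the replicate number, and each array left out.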

Additional observations from a re-analysis of the deposited data

Results flagged for a closer look

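In 1 of the 24 sets of 5 arrays examined (12 probe sets in each genotype), a single array stood apart from the other four by Dixon's gap test. Tnfrsf1a, the TNFR1 gene, read 137.3 in Irf4+/+ replicate 3, and its gap to the next array took up 0.722 of the range on the log2 scale, above the critical value of 0.71. Chance alone marks about 1 in 20 such sets. Without this array the log2 fold change of Tnfrsf1a was 0.14 (limma adjusted p = 0.495), against 0.01 with it.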

How the results depend on the processing

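Under 22 alternatives the 5 called receptors kept their direction and their call wherever they were tested. Cd40 ranged from 1.78 to 1.85 on the log2 scale, Tnfrsf13c from -0.95 to -0.88, Fas from 0.37 to 0.48 and Tnfrsf13b from 0.26 to 0.33. The count of receptors called was 4 under the 60th percentile filter, which drops Tnfrsf14, and 4 without probe sets whose names end in _x_at, _s_at or _a_at, which drops all those of Cd40. The uncalled Tnfrsf1a (-0.08 to 0.14) and Tnfrsf1b (-0.15 to 0.21) changed sign but were not called in any. Over all genes 4887 to 6005 were called, against 5788 as reported, and the lowest count was without the shared probe sets. Genes called per list ranged from 6 to 9 for ligands and 4 to 7 for other TNF receptors (lowest under the 60th percentile filter, and for other TNF receptors as low without the shared probe sets), 16 to 19 for adaptors and 7 to 10 for NF-kB proteins (lowest without the shared probe sets). Tnfrsf14 ranged from 1.25 to 3.01 with the constant. Of the genes named by the rule, the single one to lose its call where tested was Traf4 (-0.36 when its probe sets were averaged, limma adjusted p = 0.051). Other scalings moved the median of all genes by at most 0.04 on the log2 scale. The replicate numbers of the titles showed no pairing of the samples: deviations of same-numbered samples correlated between -0.0403 and 0.0506. No Irf4-/- sample correlated best with the Irf4+/+ sample of its own number. With the replicate number as a block 5716 genes and 5 receptors were called. Dim signals limit Tnfrsf17, Cd27 and the size for Tnfrsf14.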

Other observations

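The genes beside the receptors on the chromosome, taken from the RefSeq order of protein-coding genes and named after their values were seen, were called in the direction of their receptor in some cases and not in others. Around Cd40, Slc12a5, Ncoa5 and Cdh22 were not called (log2 fold changes -0.38, -0.23 and -0.32) and Slc35c2 was lower (-0.60, limma adjusted p = 0.0311). Around Tnfrsf13c, Srebf2 and Cenpm were not called (0.05 and 0.06), and Septin3 rose 2.12 on the log2 scale (302.5 ± 38.3 in Irf4-/- against 66.9 ± 25.2 in Irf4+/+ samples, SD, n = 5 each). Beside Tnfrsf14, Hes5 and Pank4 rose with it (0.84 and 0.25) and Prxl2b was not called (0.02), and beside Fas, Stambpl1 rose (0.29) and Acta2, Ch25h and Lipa were not called (-0.04, 0.08 and 0.15). Beside Tnfrsf13b, Usp22 fell (-0.43) and Map2k3 was not called (-0.11). Tnfrsf1b and Tnfrsf8 are neighbours on chromosome 4. Tnfrsf8 fell while Tnfrsf1b was not called. On the other side of Tnfrsf1b, Dhrs3 rose (0.29) and Vps13d was not called (-0.08). The lymphotoxin beta receptor gene Ltbr lies between Cd27 and Tnfrsf1a on chromosome 6, and it was not called either (-0.02, adjusted p = 0.936). Plekhg6 and Cd9, on the other side of Tnfrsf1a, were not called (0.19 and -0.13). On the other side of Cd27, Vamp1 and Tapbpl rose (0.98 and 0.76), and Vamp1 passed the filter through its Irf4-/- samples alone. Beside Tnfrsf17, itself too dim to test, Snx29 rose (1.97) and Gspt1 and Cpped1 fell (-0.72 and -0.48).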
